A study of Bos taurus with 32 samples.

Results

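The miRNAs of the imprinted DLK1-DIO3 locus were described in bovine fat. They were taken by name: every bovine (bta) miRNA on the array whose number was one of 40 numbers known for this locus, with any letter or arm, which gave 46 miRNAs beside 626 others on the array. The rule used names and no measured value, but it was set with earlier results of these data known. The samples came from 16 Hereford×Aberdeen Angus cross steers of one age, of which 8 received a control diet low in fat and 8 a high fat diet. Each steer gave backfat as subcutaneous fat and perirenal fat as visceral fat, so that there were 4 groups of 8 samples, each hybridized with a single dye (Cy3) to 1 of 32 Agilent miRNA arrays. The high fat diet got its extra fat from flaxseed. Each sample was whole fat tissue, in which fewer cells of a type and less miRNA per cell cannot be told apart.

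The DLK1-DIO3 locus holds protein genes that are read from the paternal chromosome, among them DLK1, which encodes a membrane protein of preadipocytes (Pref-1) that restrains their differentiation into fat cells, and RTL1, a retrotransposon-like gene. From the maternal chromosome the locus gives long non-coding RNAs (MEG3, MEG8, MEG9) and one of the largest groups of miRNA genes in mammals. Some of these miRNAs, including miR-431, miR-433, miR-127, miR-432 and miR-136, lie antisense to RTL1 and can cleave its transcript, and the long series that starts with miR-379 and ends near miR-410 lies farther on, towards DIO3, the gene of a deiodinase that inactivates thyroid hormone. In sheep a variant of the same locus causes the heavily muscled callipyge phenotype.

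The gene order was read from the RefSeq annotation of the cow assembly ARS-UCD2.0, in which 45 of the 46 miRNAs had a gene. From the DLK1 side the order was MEG3, miR-493, miR-665, RTL1, miR-431, miR-433, miR-127, MEG8, miR-432, miR-136, miR-370 and then miR-379, miR-411 and the rest up to miR-410 and miR-656, with MEG9 and DIO3 after them. The 8 miRNAs up to miR-370 are called proximal below, and the other 38 distal. bta-miR-544b was not placed.

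The intensities used were background subtracted and summed over the 20 spots of a miRNA, in arbitrary units, and a miRNA was taken as detected where the scanner software called it so. The arrays of the high fat diet were brighter: the ratio of the median summed intensity, high fat over control, was 5.42, while that of the labelling spike-ins was 0.819. The 8 arrays of a group shared a slide, and each diet had its own scan session, so slide and group, and session and diet, cannot be told apart. For this reason each intensity was divided by the 75th percentile of its array over 91 miRNAs that every array detected, and all levels below are log2 values of this scaled intensity, each relative to the other miRNAs of the same array. The lowest intensity that an array called detected was alike in the groups (medians of 2.50, 2.79, 2.52 and 2.64 units for control subcutaneous, control visceral, high fat subcutaneous and high fat visceral fat), but on the scaled log2 values this limit lay at -7.33 to -4.91 on the control arrays and at -10.04 to -6.90 on the high fat arrays. The summed scaled intensity of 5 epithelial miRNAs did not exceed 0.0114, and no miRNA of the nervous tissue list was detected. That of 6 skeletal muscle miRNAs had medians of 0 to 0.0596 over the groups and reached 0.228 on 1 array. Of the 3 muscle miRNAs tested, 1, bta-miR-1, was higher on the high fat diet in both depots. Its log2 difference was 2.01 (limma adjusted p = 3.43e-05) and 2.21 (limma adjusted p = 7.76e-06). bta-miR-1 was detected on 17 arrays, and undetected arrays were set to a common floor (log2 -7.22). In control subcutaneous fat the median of the muscle list was 0. The differences of bta-miR-1 thus rest in part on the floor and are descriptions. The liver marker bta-miR-122 reached 0.277 in control and 0.427 in high fat visceral fat, with medians of 0 in all groups. Of 8 blood and immune miRNAs the medians were 0.424, 0.457, 0.402 and 0.331 in the order of groups above, with a highest value of 1.06. The level of the 2 endothelial miRNAs moved with diet, with a median in subcutaneous fat of 0.918 (control) and 4.43 (high fat) and in visceral fat of 1.58 and 6.24, and that of 12 miRNAs known from fat tissue had medians of 2.70, 3.45, 4.93 and 6.26 in the order of groups above. The part of these lists in the results on the cluster was not tested.

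Of the 46 cluster miRNAs, 23 were detected on at least 1 array, a share of 50%, against 43.9% of all miRNAs on the array. bta-miR-127, bta-miR-494 and bta-miR-665 were detected on all 32 arrays. bta-miR-376d, bta-miR-379, bta-miR-411 and bta-miR-487b were also detected on all 16 arrays of the high fat diet, and 6 more, bta-miR-136, bta-miR-369-5p, bta-miR-376b, bta-miR-382, bta-miR-410 and bta-miR-495, on all 8 arrays of high fat subcutaneous fat. Members detected on few arrays were bta-miR-376c (4 arrays), bta-miR-370 (1 array) and bta-miR-539 (1 array). The other 23 were detected on none: bta-miR-134, miR-154, miR-323, miR-329a, miR-329b, miR-369-3p, miR-376a, miR-380-5p, miR-412, miR-431, miR-433, miR-453, miR-485, miR-487a, miR-493, miR-496, miR-541, miR-544a, miR-544b, miR-654, miR-655, miR-656 and miR-758. On the RTL1 side bta-miR-127 stood beside bta-miR-431 and bta-miR-433, which were detected on no array, and of the 8 proximal miRNAs 5 were detected, as were 18 of the 38 distal ones. Where the array held both arms of a hairpin, 1 arm was found, with bta-miR-369-5p on 14 arrays and bta-miR-369-3p on none, and bta-miR-380-3p on 9 arrays and bta-miR-380-5p on none. Among close relatives bta-miR-376d was detected on 16 arrays, bta-miR-376b on 14, bta-miR-376c on 4 and bta-miR-376a on 0, and bta-miR-487b on 16 and bta-miR-487a on 0.

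**Figure D1:**
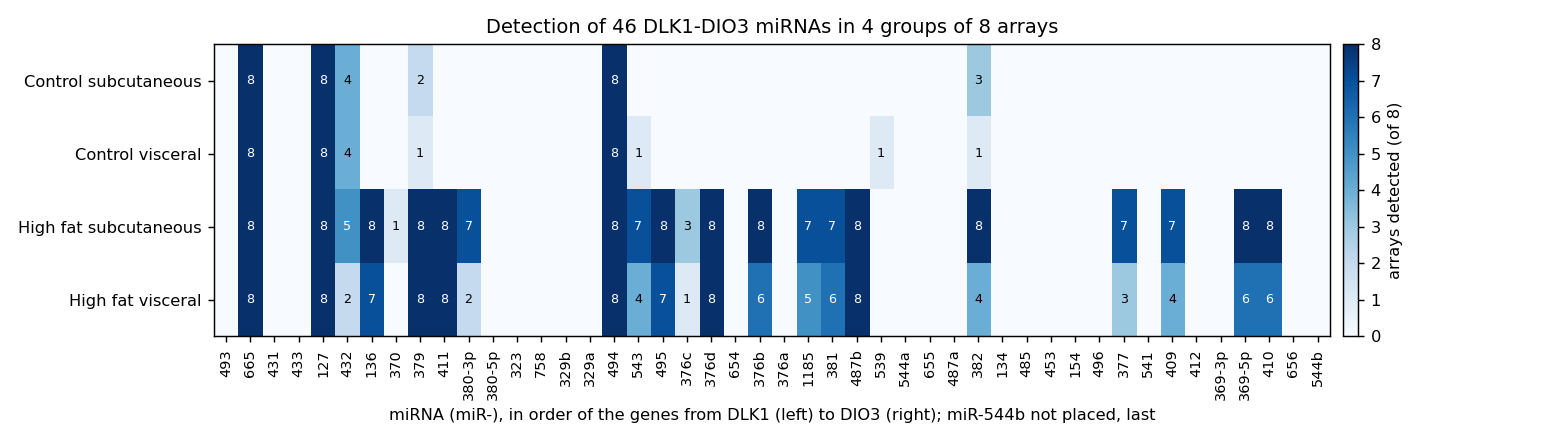
Number of arrays, of the 8 in each group (rows), on which each of the 46 cluster miRNAs (columns, in gene order from DLK1 to DIO3) was called detected; blank cells are 0. bta-miR-665, bta-miR-127 and bta-miR-494 are detected on all arrays of all groups, and 15 of the other 20 detected miRNAs are filled in the high fat rows alone.

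Detection followed the diet. In control subcutaneous fat the arrays detected 3 to 6 members with a median of 3.5, and in control visceral fat 3 to 7 with a median of 4. In high fat subcutaneous fat they detected 13 to 22 with a median of 20, and in high fat visceral fat 7 to 21 with a median of 15. The high fat arrays did not overlap the control arrays in subcutaneous fat, and in visceral fat they met at 7. Of the 23 detected members 15 (65.2%) were found on some high fat array and on no control array, against 28.8% of the 295 miRNAs detected at all. These numbers come from arrays of unequal brightness, which in subcutaneous fat detected 118 to 176 miRNAs in all (control) and 228 to 254 (high fat), and in visceral fat 115 to 166 and 169 to 259. When a member was counted only above a common scaled limit, the highest limit of any array (log2 -4.91), the medians were 3, 3, 4 and 5 members in the same order of groups. Most of the added members thus lay under the limit of the least sensitive control array. The members gave a small share of the summed intensity in all groups, with medians of 0.176%, 0.213%, 0.303% and 0.294%.

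The 3 miRNAs measured on all arrays differed unequally between the groups of the 2 diets, where diet and scan session cannot be told apart. bta-miR-127, one of the RTL1 antisense miRNAs, had a scaled log2 level of -3.96 to -2.24 (median -3.40) in control subcutaneous fat and of -4.32 to -3.37 (median -3.69) in high fat subcutaneous fat. In visceral fat it was -3.91 to -2.48 (median -3.27) on the control diet and -3.79 to -2.66 (median -3.43) on the high fat diet. The groups overlapped in both depots, and the log2 difference, high fat minus control, was -0.39 (SE 0.219, limma adjusted p = 0.107) in subcutaneous fat and 0.01 (SE 0.219, limma adjusted p = 0.993) in visceral fat, with 95% intervals of -0.83 to 0.06 and -0.44 to 0.46.

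bta-miR-665, which lies between MEG3 and RTL1, had a level of -3.71 to -2.67 (median -3.42) in control subcutaneous fat and of -6.91 to -5.86 (median -6.40) in high fat subcutaneous fat. In visceral fat it was -3.77 to -2.47 (median -3.07) on the control diet and -6.77 to -5.61 (median -5.96) on the high fat diet. All high fat samples lay below all control samples in both depots. The log2 difference was -3.09 (SE 0.189, limma adjusted p = 2.67e-15) in subcutaneous fat and -2.99 (SE 0.189, limma adjusted p = 5.93e-15) in visceral fat. Before scaling its median intensity was nearly the same in all groups, at 22.5, 22.3, 21.7 and 18.6 units, while that of bta-miR-127 was 25.3, 15.5, 149.9 and 102.5 units in the same order of groups.

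bta-miR-494, of the distal series, had a level of -4.40 to -0.74 (median -3.31) in control subcutaneous fat and of -4.95 to -2.76 (median -4.34) in high fat subcutaneous fat, and the groups overlapped. In visceral fat it was -3.21 to -1.85 (median -2.68) on the control diet and -4.93 to -3.49 (median -4.51) on the high fat diet, with no overlap. The log2 difference was -1.02 (SE 0.362, limma adjusted p = 0.0122) and -1.79 (SE 0.362, limma adjusted p = 4.99e-05).

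Ratios of these 3 miRNAs on the same array do not depend on a scaling by 1 factor per array. They do depend on quantile normalization and on normexp background correction. In subcutaneous fat the diet differences of bta-miR-665 and bta-miR-127 were -5.22 and -0.49 with quantile normalization, and -2.42 and -1.59 with normexp. The ratios below are of the summed intensities. The log2 ratio of bta-miR-665 to bta-miR-127 was -0.02 ± 0.732 (SD, n = 8) in control and -2.72 ± 0.497 in high fat subcutaneous fat, a difference of -2.70 (SE 0.313, two-sided exact permutation p = 0.000155, the smallest that 8 against 8 can give). In visceral fat the same difference was -3.00 (SE 0.302, exact permutation p = 0.000155). The ratio of bta-miR-494 to bta-miR-127 differed by -1.80 (SE 0.349, exact permutation p = 0.000622) in visceral fat, and by -0.63 (SE 0.615, exact permutation p = 0.334) in subcutaneous fat. The ratio of bta-miR-494 to bta-miR-665 differed by 2.07 (SE 0.492, exact permutation p = 0.00218) and 1.2 (SE 0.327, exact permutation p = 0.00326) in subcutaneous and visceral fat. These were 6 comparisons, whose p-values are given unadjusted. On the summed intensities the 3 miRNAs therefore changed unequally between diets, and the ratios do not show which of them changed.

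Of the 46 members 20 were detected on at least 8 arrays, and 19 of them rose above a floor (log2 -7.22) on some array and were tested with the 233 miRNAs that met this rule. bta-miR-380-3p was below the floor on all its 9 arrays. Of the 19, 12 were detected on no control array and so entered the test through the high fat arrays. bta-miR-379, bta-miR-382 and bta-miR-543 were detected on few control arrays and also needed the high fat arrays to enter. The counts over the members are descriptions. In subcutaneous fat 9 of the 19 were higher on the high fat diet at an adjusted p under 0.05 and 2 were lower, where 41.6% of all 233 tested miRNAs were higher and 34.3% lower. In visceral fat 9 were higher and 3 lower, where 42.1% and 29.6% of all tested were. The 9 that were higher made 47.4% of the members, close to the share among all tested miRNAs, and 8 of them were higher in both depots. The median log2 difference of the 19 members was 0.16 and 0.23 in subcutaneous and visceral fat, beside 0.10 and 0.17 for all 233. Of the 4 proximal members tested, 1 was higher in each depot, 1 was lower in subcutaneous fat and 2 in visceral fat. Of the 15 distal ones, 8 were higher and 1 was lower in each depot.

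**Figure D2:**
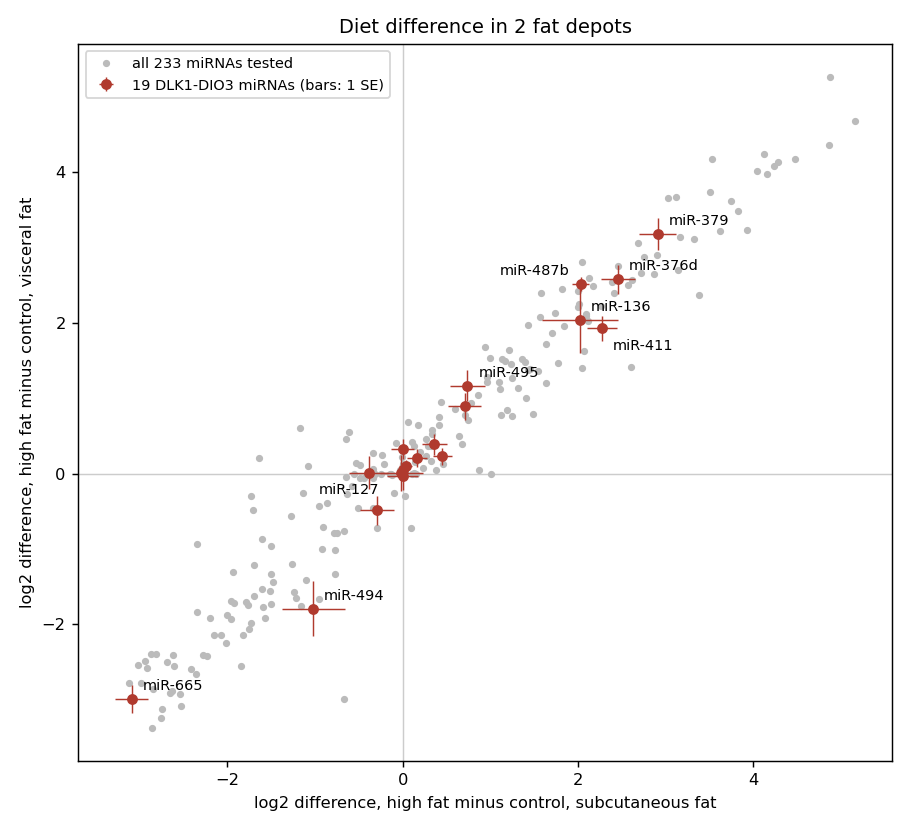
Log2 difference, high fat minus control diet, in subcutaneous fat (horizontal axis) and visceral fat (vertical axis) for the 19 cluster miRNAs tested (red, bars 1 SE) and all 233 tested miRNAs (grey). bta-miR-379 lies highest at 2.91 and 3.18 and bta-miR-665 lowest at -3.09 and -2.99 among the cluster miRNAs, within the spread of the other miRNAs.

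The largest rises were in the distal series. bta-miR-379, the first gene of that series, was detected on 2 of 8 control subcutaneous arrays and 1 of 8 control visceral arrays, with levels of -6.75, -5.94 and -5.80. In high fat subcutaneous fat it was -4.65 to -3.77 (median -4.05) and in high fat visceral fat -4.36 to -3.23 (median -3.92), above all the detected control values. Undetected control arrays were then set to their own detection limit. On this basis bta-miR-379 was 4.65-fold higher in subcutaneous fat (limma adjusted p = 3.46e-08) and 4.22-fold higher in visceral fat (limma adjusted p = 1.24e-07). Its few control detections would not have met the filter without the high fat arrays, so these values are descriptions. Such fold values are relative to the scaling of the arrays. The limit is the lowest detected value of any miRNA on the array, so an undetected miRNA can lie above it and a fold value is no strict bound. The adjusted p beside a fold value is that of the fit with undetected arrays at their own limits. This fit was used since with all control arrays at the floor a control group has no spread.

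bta-miR-376d, bta-miR-411 and bta-miR-487b were detected on no control array and on all high fat arrays. They could pass the filter through the high fat arrays alone, so their fold values and p-values are descriptions. bta-miR-376d was -5.22 to -4.44 (median -4.73) in high fat subcutaneous fat and -6.27 to -3.83 (median -4.59) in high fat visceral fat. This was 3.35-fold (limma adjusted p = 1.88e-05) and 2.59-fold (limma adjusted p = 0.000346) above the control limits. bta-miR-411, the neighbour of bta-miR-379, was -5.32 to -4.57 (median -4.96) and -6.62 to -4.36 (median -5.20), 2.95-fold (limma adjusted p = 5.43e-05) and 1.65-fold (limma adjusted p = 0.0376) above these limits. bta-miR-487b was -5.57 to -4.99 (median -5.16) and -4.95 to -4.18 (median -4.78), 2.49-fold above them in both depots (limma adjusted p = 0.000139 in subcutaneous fat and 0.000125 in visceral fat). These fold values use the mean limit of the control group. The highest limit of a single control array, -5.00 in subcutaneous and -4.91 in visceral fat, lay above some of the high fat values of all of these miRNAs.

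The proximal bta-miR-136, an RTL1 antisense miRNA, was detected on no control array, on all 8 high fat subcutaneous arrays at -5.56 to -3.87 (median -5.36) and on 7 of 8 high fat visceral arrays at -7.39 to -2.49. It was 2.48-fold above the mean control limit in subcutaneous fat (limma adjusted p = 0.0164), a description as for the miRNAs above. In visceral fat its log2 difference was 2.04 with all control arrays at the floor and 0.85 (limma adjusted p = 0.111) with undetected arrays at their own limits, where the call was lost, with high fat samples that reached from the floor to -2.49, and its SD of 1.70 (n = 8) was the largest of any member in any group.

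**Figure D3:**
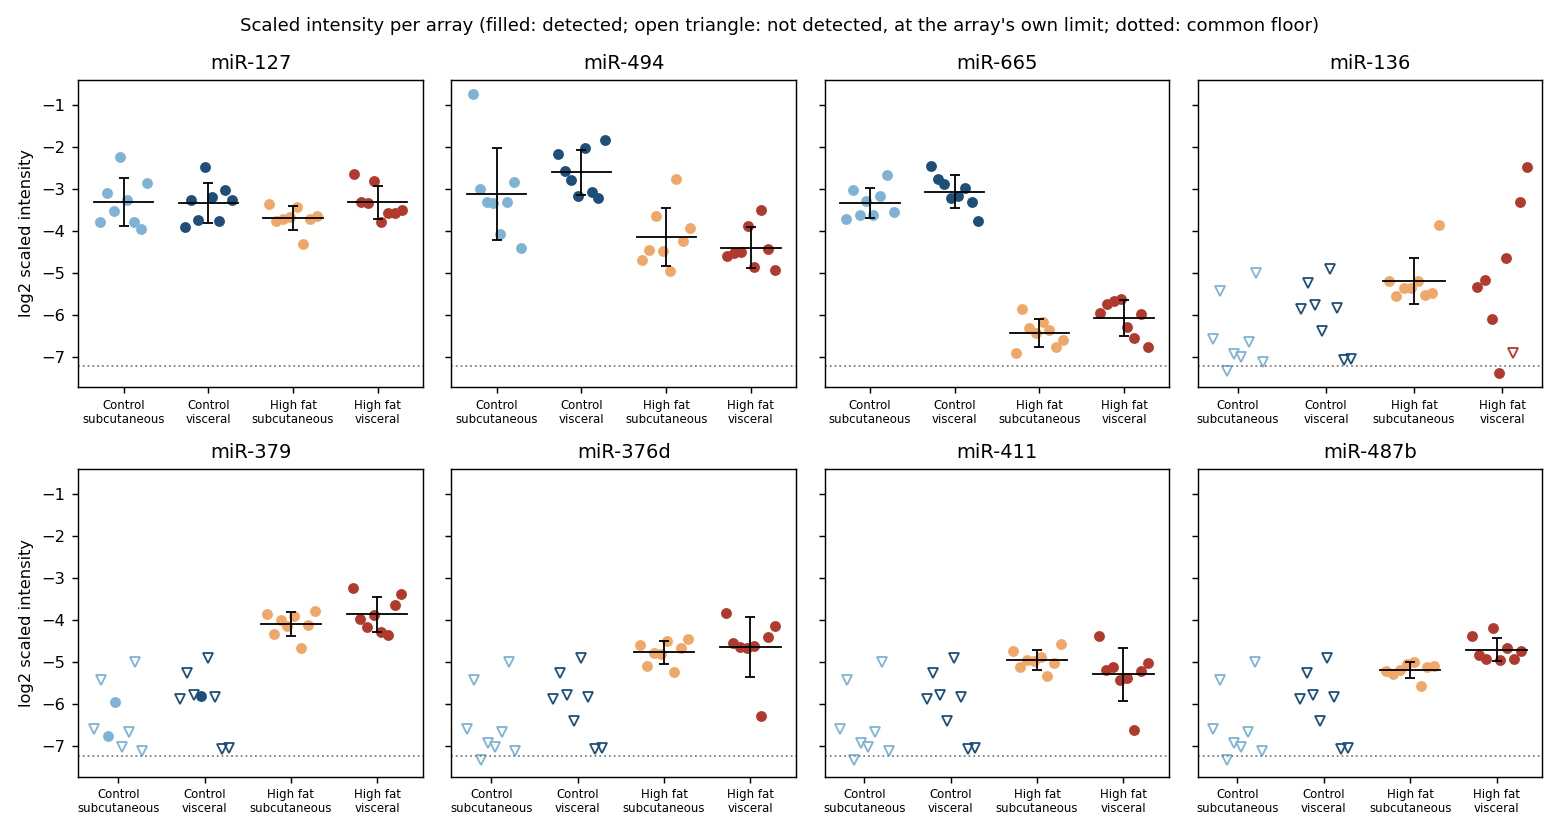
Scaled log2 intensity of 8 cluster miRNAs on each of the 8 arrays of 4 groups, with the mean and 1 SD (black) where all 8 arrays detected the miRNA. Filled points are detected, open triangles stand at the array's own detection limit where the miRNA was not detected, and the dotted line is the floor at -7.22. The control triangles of bta-miR-376d, bta-miR-411 and bta-miR-487b reach up to -4.91, into the range of the high fat points.

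Other rises were near the floor. bta-miR-495 was detected on all 8 high fat subcutaneous arrays (-7.54 to -6.02, median -6.42) and on 7 visceral ones, and no control array. bta-miR-410, at the far end of the distal series, was detected on all 8 high fat subcutaneous arrays (-8.20 to -6.08, median -6.45) and on 6 visceral ones. bta-miR-376b was detected on all 8 (-7.49 to -6.30, median -6.96) and on 6. All of these ranges lay under the highest control limit. Their fitted log2 differences were 0.74 and 1.17 for bta-miR-495, 0.71 and 0.89 for bta-miR-410, and 0.36 and 0.39 for bta-miR-376b in subcutaneous and visceral fat. bta-miR-409 passed the test in subcutaneous fat alone (0.45) and bta-miR-1185 in visceral fat alone (0.33). All 5 were detected on no control array, so that every control value was the floor, and these differences are descriptions. The floor lay under the detection limit of many control arrays. With undetected arrays at their own limits, none of these 5 was higher in either depot at an adjusted p under 0.05. Then 5 of 20 members in subcutaneous and 4 in visceral fat were higher, where 32.5% and 31.2% of all tested were, and 4 were higher in both depots: bta-miR-376d, bta-miR-379, bta-miR-411 and bta-miR-487b. In the same fit 9 and 12 of the 20 members were lower, as were 49.2% and 52.5% of all tested. The scaled limits were higher on the control arrays, so a lower call of a miRNA undetected there does not show a decrease. bta-miR-377 and bta-miR-381 were so called in subcutaneous fat (-1.34 and -1.14), although 7 high fat arrays and no control array detected each.

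bta-miR-432, between MEG8 and bta-miR-136, was detected on 4 control arrays in each depot and on 5 and 2 high fat arrays, with high fat levels of -9.45 to -8.58 and -9.53 to -8.40, all under the floor. Its difference was -0.29 (limma adjusted p = 0.177) in subcutaneous and -0.49 (limma adjusted p = 0.0257) in visceral fat. bta-miR-382 was detected on 3 and 1 control arrays and on 8 and 4 high fat arrays. In high fat subcutaneous fat it was -8.21 to -6.46 (median -6.88), and its difference was -0.02 (limma adjusted p = 0.982) there and 0.01 (limma adjusted p = 1) in visceral fat. bta-miR-369-5p was detected on 8 and 6 high fat arrays (-7.85 to -6.72, median -7.20, in subcutaneous fat), with differences of 0.16 and 0.20 that did not pass the test. bta-miR-377 (7 and 3 high fat arrays), bta-miR-381 (7 and 6) and bta-miR-543 (7 and 4, and 1 control array) had differences from -0.04 to 0.10, none past the test. Most of their detected values were under the floor.

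The direction of the diet differences against 0 depended on how the arrays were made comparable. Without scaling, the median of all tested miRNAs was 2.41 and 1.63 higher (log2) on the high fat diet in subcutaneous and visceral fat, and 18 and 15 of 20 members were higher, as were 85.8% and 68.8% of all 240 tested, with 0 and 1 lower. With the labelling spike-ins the medians were 2.57 and 1.89, with 18 and 17 members higher and 0 lower, beside 90.4% and 76.2% of all tested that were higher, and bta-miR-665 differed by 0.10 and -0.16. With the normexp background correction the medians were -1.85 and -1.52, and 0 members were higher and 20 lower in each depot, where 82.9% and 80% of all tested were lower. Relative to the median of all miRNAs tested in the same setting, bta-miR-379 was above it in both depots by 0.60 to 4.45 over 10 settings, and bta-miR-376d, bta-miR-411, bta-miR-487b and bta-miR-136 were also above it in all 10. All of these but bta-miR-379 were detected on no control array, and bta-miR-379 on few. They met the filter through the high fat arrays, so their place above the median is a description and no test of robustness. bta-miR-665 was below it in all 10 in both depots, at -5.36 to -0.34, bta-miR-494 was below it in all 10 in visceral fat and in 9 of 10 in subcutaneous fat, and bta-miR-127 was above it in 4 settings in subcutaneous fat and in 5 in visceral fat.

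**Figure D4:**
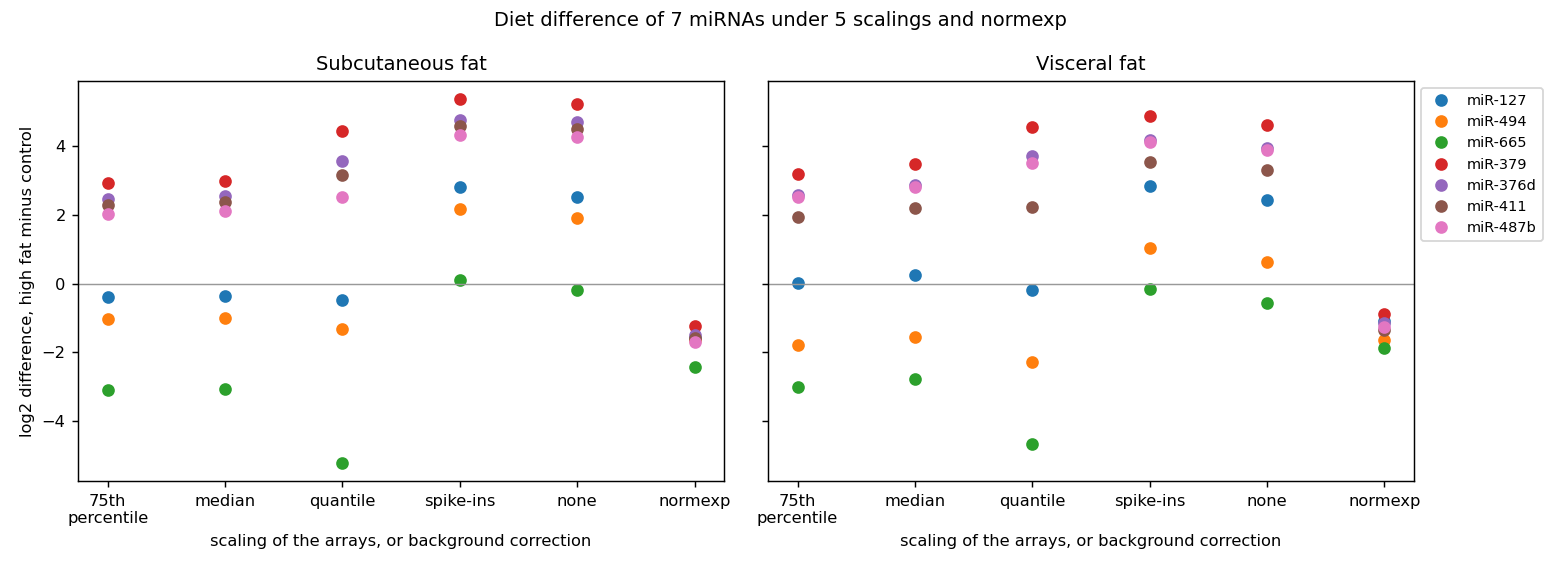
Log2 difference, high fat minus control diet, of the 7 cluster miRNAs detected on all high fat arrays (colours), with the 75th percentile used here, 4 other ways of scaling the arrays, and normexp background correction (horizontal axis), in both depots. The whole set moves up without scaling or with spike-ins and down with normexp, while in the 6 settings drawn bta-miR-379 is uppermost and bta-miR-665 lowest.

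The depots were then compared within each diet. On the control diet no member passed the test between visceral and subcutaneous fat (limma adjusted p under 0.05, 0 members also at an unadjusted p under 0.05), where 18.9% of all tested miRNAs passed. For the 12 tested members detected on no control array, both control groups stood at the floor. The test could not call these, and no depot difference on the control diet was measured for them. For the members measured on all arrays the differences, visceral minus subcutaneous, were -0.02 for bta-miR-127, 0.26 for bta-miR-665 and 0.52 for bta-miR-494, with 95% intervals of -0.47 to 0.43, -0.12 to 0.65 and -0.22 to 1.26. The bta-miR-494 value turned on 1 sample, the subcutaneous fat of steer 108 at -0.74. Without it the difference was 0.86 (limma adjusted p = 0.0331), the 1 member then called.

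On the high fat diet 1 member, bta-miR-487b, passed, where 11.6% of all tested miRNAs were higher in visceral fat and 26.2% differed in either direction. Its levels were -5.57 to -4.99 in subcutaneous and -4.95 to -4.18 in visceral fat and did not overlap. The difference was 0.49 (SE 0.0926, limma adjusted p = 0.000257) and visceral fat was higher in 8 of 8 steers, by little in steer 302 (-4.99 against -4.95) and by most in steer 303 (-5.57 against -4.66). This SE pools the 4 groups, and both control groups stood at the floor with an SD of 0, which makes it smaller. In a fit to the high fat arrays alone the difference was 0.62 (limma adjusted p = 0.00375). Without scaling the difference was -0.38 and with spike-ins -0.21, as visceral arrays were dimmer, with a median 75th percentile of 988 units against 1752 units. Of 20 members, 10 differed between depots without scaling, 8 with spike-ins and 19 with normexp, where 55.4%, 45.8% and 71.7% of all tested did. bta-miR-127 was higher in visceral fat in 7 of 8 steers, by 0.38 on average (limma adjusted p = 0.208), and by 0.51 (limma adjusted p = 0.0353) in a fit to the high fat arrays alone. bta-miR-411 had a difference of -0.35 (limma adjusted p = 0.128) and was higher in visceral fat in 1 of 8 steers. bta-miR-376d and bta-miR-379 differed by 0.12 and 0.23 (limma adjusted p = 0.735 and 0.499), and each was higher in visceral fat in 6 of 8 steers. At an unadjusted p under 0.05 there were 5 members, bta-miR-487b, bta-miR-411, bta-miR-409, bta-miR-495 and bta-miR-1185. Without the visceral sample of steer 303, 3 members passed (bta-miR-487b, bta-miR-376d and bta-miR-495), where 21.9% of all tested differed in either direction. The call of bta-miR-487b held with the steer as a block and was lost with spot intensities (limma adjusted p = 0.0721), with a floor at an intensity of 1 (0.0824), with undetected arrays at their own limits (0.223) and in the methods' t-test with Bonferroni correction (0.238).

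**Figure D5:**
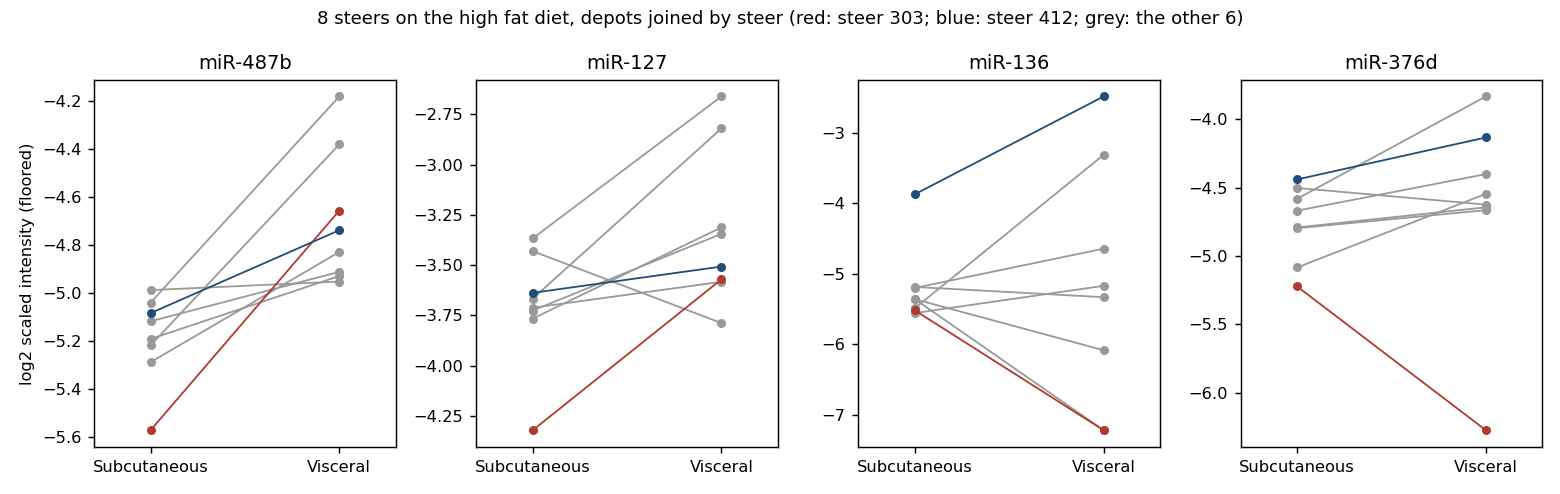
Scaled log2 intensity of 4 cluster miRNAs in subcutaneous and visceral fat of the 8 steers on the high fat diet, the 2 samples of a steer joined by a line (values under the floor drawn at -7.22). All 8 lines rise for bta-miR-487b and 7 for bta-miR-127. Steer 412 (blue) is highest for bta-miR-136 in both depots, and steer 303 (red) lowest for bta-miR-376d in both.

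The depot difference was then compared between diets. bta-miR-487b was the 1 member past the test (0.49, SE 0.131, limma adjusted p = 0.0442), where 1.72% of all tested miRNAs passed. It was not detected on any control array, so its control difference was that of the floor against itself and no depot difference on the control diet was measured. The call was lost with the steer as a block (limma adjusted p = 0.101), without the subcutaneous sample of control steer 108 (0.0516) and without the visceral sample of high fat steer 303 (0.0546), and the value was 0.00 (limma adjusted p = 0.999) with undetected arrays at their own limits.

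Members also varied between steers on the same diet. Steer 303 on the high fat diet had the fewest members detected in both depots. In its subcutaneous fat 13 members were detected, against 19 to 22 in the other 7 steers, although the array detected 228 miRNAs in all, as many as that of steer 202 with 20 members. In its visceral fat 7 were detected, on the array with the fewest miRNAs of that group (169). Its bta-miR-376d was the lowest of the group in both depots (-5.22 and -6.27), as were bta-miR-411 (-5.32 and -6.62) and bta-miR-379 (-4.65 and -4.36). Steer 412 had the highest bta-miR-136 in both depots, at -3.87 where the other 7 were -5.56 to -5.19, and at -2.49 in visceral fat, where steer 411 followed at -3.31. Control steer 211 had the highest bta-miR-127 in both depots (-2.24 and -2.48), and the most members detected, 6 and 7, a number that steer 209 shared in subcutaneous fat. Each steer's samples had the same position on both slides, so steer and position cannot be told apart.

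Across the 8 steers of a diet the level in one depot was set against that in the other for the members detected on all arrays of that diet. bta-miR-376d (r = 0.761, two-sided exact permutation p = 0.0162, rho = 0.690, exact p = 0.0694) and bta-miR-411 (r = 0.756, exact permutation p = 0.0401, rho = 0.690, exact p = 0.0694) had the highest correlations on the high fat diet. Leaving out the 2 steers farthest from the subcutaneous median gave r = 0.531 and 0.648. On the control diet bta-miR-127 had r = 0.714 (exact permutation p = 0.0439) and rho = 0.405 (exact permutation p = 0.327), and r = 0.892 without the 2 farthest steers. Adjusted over the 159 miRNAs so compared on the high fat diet and the 95 on the control diet, no member passed (exact permutation, adjusted p = 0.939 for bta-miR-376d and bta-miR-411 and 0.579 for bta-miR-127).

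Over the 16 high fat arrays, with the mean of each depot subtracted, the 7 members detected on all of them made 21 pairs. Their correlation had a median of 0.194, beside 0.0709 over the 12561 pairs of the 159 miRNAs detected on all these arrays, and ranged from -0.598 to 0.963. The highest were those between bta-miR-376d and bta-miR-411 (r = 0.963), bta-miR-127 and bta-miR-487b (r = 0.828), bta-miR-376d and bta-miR-379 (r = 0.778) and bta-miR-379 and bta-miR-411 (r = 0.763). bta-miR-494 ran against the other distal members, with r from -0.598 with bta-miR-376d to -0.123 with bta-miR-487b, and bta-miR-665 had r from -0.176 to 0.243 with the rest. Over all 32 arrays, with group means subtracted, bta-miR-127, bta-miR-494 and bta-miR-665 had correlations of -0.381 (bta-miR-127 with bta-miR-494), -0.111 (bta-miR-127 with bta-miR-665) and -0.00366 (bta-miR-494 with bta-miR-665). The arrays share slide, steer and scaling, and these correlations are descriptions.

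Of the numbers of the same locus that the list of 40 left out, the array held bta-miR-299, bta-miR-1193 and bta-miR-1197. The last of these and bta-miR-1193 were detected on no array. bta-miR-299, whose gene follows those of bta-miR-379 and bta-miR-411, was detected on 25 arrays, and the high fat groups exceeded the control groups by 0.99 (SE 0.399, limma adjusted p = 0.0253) in subcutaneous fat and by 1.54 (SE 0.399, limma adjusted p = 0.00092) in visceral fat. It was detected on all high fat arrays but not on all control arrays of either depot, and undetected arrays stood at the floor. With 0 for an undetected array, its scaled intensity before log2 was 0 to 0.033 in control and 0.0201 to 0.0301 in high fat subcutaneous fat. In visceral fat it was 0 to 0.0528 and 0.0302 to 0.0603. The diets thus overlapped in both depots, and the differences rest in part on the floor. Of miRNAs from other imprinted loci, bta-miR-483 (IGF2) was detected on no array, bta-miR-335 (MEST) on 6 and bta-miR-296 (GNAS) on 21. bta-miR-296 was lower in visceral than in subcutaneous fat on both diets, by a difference of -2.10 (limma adjusted p = 0.000399) on the control diet and -1.62 (limma adjusted p = 0.0041) on the high fat diet, and its diet differences did not pass the test (limma adjusted p = 0.0548 and 0.417). The summed scaled intensity of these other imprinted miRNAs had a median of 0 in visceral fat on both diets. Most visceral values of bta-miR-296 were therefore the floor, and the size of its depot differences depends on it.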

How the data were processed

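Arrays were read from 32 Feature Extraction 10.7.3.1 files. The authors scanned each array once, and the deposited intensity of a miRNA was background subtracted, summed over its probes and not scaled between arrays, with 0.1 for an undetected miRNA. The authors also deposited a GeneSpring table of log2 values (75th percentile shift), which was used as an alternative after matching features by value. The members, lists, tests and alternatives were chosen with earlier results of these data known. Total intensities were divided by the array's 75th percentile over 91 miRNAs, values under the floor (the array-wise lowest detected scaled value, as its median) were raised to it, and 233 miRNAs detected on at least 8 arrays and above the floor somewhere were tested with limma 3.58 in R 4.3 (4 group means in 1 fit, two-sided, Benjamini-Hochberg). 95% intervals are from the same fit. Every member that met this filter is named with its values, those on 1 to 7 arrays with their number, and those on none by name. The alternatives were other scalings (the percentile over all miRNAs, median, none, 4 labelling spike-ins, quantile), spot intensities, normexp (offset 50), a floor at an intensity of 1, the deposited values, other filters, blocks, the methods' t-test, and single samples left out. Undetected arrays at their own limit, the high fat arrays alone, the visceral sample of steer 303 left out, the common scaled limit, the correlation within steers and the ratios were added after seeing the data. The fit was tested on simulated data modelled on the miRNAs detected on all arrays, with no floor and no undetected arrays. That simulation does not cover members with undetected arrays. Precision is limited by 8 arrays a group and by each array's detection limit. Samples with one steer number are the 2 depots of that steer by the labels, and the correlation of their deviations from the group means was -0.391 to 0.652.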

Additional observations from a re-analysis of the deposited data

Results flagged for a closer look

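In the 30 sets of 8 values examined, 9 had an end sample that stood far from the rest by Dixon's test, which chance does in about 1 of 20. Of these, 5 single-miRNA values belonged to steer 303 on the high fat diet and lay low: bta-miR-127 at -4.32 (group median -3.69), bta-miR-382 at -8.21 (median -6.88) and bta-miR-410 at -8.20 (median -6.45) in subcutaneous fat, and bta-miR-376d at -6.27 (median -4.58) and bta-miR-411 at -6.62 (median -5.20) in visceral fat. The number of members detected in its subcutaneous fat, 13, was also far under the others of the group (median 20). bta-miR-136 in the subcutaneous fat of steer 412 was high at -3.87 (median -5.36), bta-miR-494 in the subcutaneous fat of control steer 108 was high at -0.741 (median -3.31), and the visceral fat of control steer 211 had 7 members detected (median 4). bta-miR-487b had a depot difference that was 0.491 larger on the high fat than on the control diet (limma), where all control samples stood at the floor.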

How the results depend on the processing

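The 91 miRNAs detected on all arrays left 3 members to test, of which 0 were higher with diet and 0 were called between depots on the high fat diet or in the comparison of depots between diets. With the 75th percentile over all miRNAs of the array, which on 15 arrays was the placeholder of an undetected miRNA, 5 members were higher in subcutaneous fat, bta-miR-127 differed by -4.44 in visceral fat, and 0 were called in the comparison between diets. The deposited values gave 5, -1.06 and 0 for the same. Without scaling 18 and 15 members were higher and 0 and 1 lower in subcutaneous and visceral fat, and 10 were called between depots on the high fat diet, where 1 of all 240 tested was higher and 132 were lower. The diet difference became 2.53 for bta-miR-127, 2.19 for bta-miR-382 and 1.89 for bta-miR-494 in subcutaneous fat, and 0.63 for bta-miR-494 and 0.75 for bta-miR-543 in visceral fat. The depot difference on the high fat diet became -1.001 for bta-miR-369-5p, -1.08 for bta-miR-376b, -0.75 for bta-miR-376d, -0.99 for bta-miR-377, -0.64 for bta-miR-379 and -0.38 for bta-miR-487b, whose difference between diets was also -0.38. With spike-ins 18 and 17 were higher, 0 and 0 lower, 8 called between depots (4 higher and 106 lower of all 240) and 0 in the comparison between diets. The diet difference became 2.80 for bta-miR-127, 2.37 for bta-miR-382, 2.17 for bta-miR-494 and 0.10 for bta-miR-665 in subcutaneous fat, and 0.00 (0.004) for bta-miR-432, 1.04 for bta-miR-494 and 0.82 for bta-miR-543 in visceral fat. The depot difference became -0.94 for bta-miR-369-5p, -0.97 for bta-miR-376b, -0.95 for bta-miR-377 and -0.21 for bta-miR-487b, with -0.21 between diets. With normexp 0 members were higher and 20 lower in each depot, 19 were called between depots (160 higher and 12 lower of all 240) and 0 in the comparison between diets. In subcutaneous fat the diet difference became -1.68 for bta-miR-136, -2.17 for bta-miR-369-5p and bta-miR-381, -2.05 for bta-miR-376b, -1.50 for bta-miR-376d, -1.25 for bta-miR-379, -2.12 for bta-miR-409, -2.05 for bta-miR-410, -1.60 for bta-miR-411, -1.71 for bta-miR-487b and -2.04 for bta-miR-495. In visceral fat it became -1.62 for bta-miR-1185, -1.10 for bta-miR-127, -1.23 for bta-miR-136, -1.64 for bta-miR-369-5p, bta-miR-376b and bta-miR-409, -1.14 for bta-miR-376d, -1.69 for bta-miR-377, -0.88 for bta-miR-379, -1.67 for bta-miR-381, -1.73 for bta-miR-382, -1.51 for bta-miR-410, -1.36 for bta-miR-411, -1.26 for bta-miR-487b and -1.45 for bta-miR-495. The depot difference became 0.75 for bta-miR-382, 0.74 for bta-miR-409 and 0.50 for bta-miR-411. With own detection limits for undetected arrays 5 and 4 members were higher, 9 and 12 lower (49.2% and 52.5% of all tested lower), and 0 were called in the comparison between diets. In this setting a negative diet difference of a member undetected on the control arrays rests on the limits set there and does not show a decrease. The diet difference in subcutaneous fat became -0.38 (-0.385) for bta-miR-376b, -1.14 for bta-miR-381, -0.51 for bta-miR-409, -0.13 for bta-miR-410 and -0.01 (-0.014) for bta-miR-495, and in visceral fat -1.28 for bta-miR-1185, -1.16 for bta-miR-369-5p, -0.97 for bta-miR-376b, -1.84 for bta-miR-377, -1.26 for bta-miR-381, -1.47 for bta-miR-382, -1.31 for bta-miR-409 and -0.36 for bta-miR-410. A floor at an intensity of 1 gave 4 and 6 lower, 0 in the comparison between diets, and -0.43 (-0.435) for bta-miR-1185 and -1.30 (-1.305) for bta-miR-377 in visceral fat. Spot intensities gave 6 and 6 lower, 4 between depots, 0 between diets, and -1.17 for bta-miR-382 in visceral fat. Quantile normalization gave 5 higher in subcutaneous fat, 4 between depots and 0 between diets, the median scaling 4 between depots, and the high fat arrays alone 2. The methods' t-test with Bonferroni correction gave 4 higher in visceral fat, 1 lower in subcutaneous fat and 0 between depots, and with Benjamini-Hochberg adjustment 1 lower in subcutaneous fat. With the steer as a replicate block 0 members were called in the comparison of depots between diets (bta-miR-487b 0.491, adjusted p = 0.101), and the block changed no other call of a member. Without the subcutaneous sample of control steer 108, 1 member was called between depots on the control diet and 0 in the comparison between diets. Without the visceral sample of steer 303, 3 were called between depots on the high fat diet and 0 in the comparison between diets. The median number of members detected per array was 7 and 8.5 on the high fat arrays by a deposited value above 0, 4 and 5 above the common scaled limit, and 5 and 6 on the control arrays by a spot well above background. The cause of these changes was not tested, other than where the smaller set of miRNAs or the placeholder sets the value. Signal limits the dim members: bta-miR-376b, bta-miR-409, bta-miR-410, bta-miR-495 and bta-miR-1185 were measured on no control array.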
